A study of Drosophila melanogaster with 15 samples.

Results

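On 1 of 15 arrays of larval brain and imaginal disc RNA, replicate 3 of the wild-type strain OregonR, 50 probe sets stood more than 3 log2 units above the highest of the other 14 arrays. They were led by Peritrophin-15a, CG34282, Peritrophin-15b and CG12934. These 50 of 18952 probe sets (0.264%) are described here. They were chosen by that difference on these arrays, so the values below describe them and carry no test. A further condition, that no symbol begin with Cyp, Cpr, Gst or Ugt, removed 0 probe sets. In those families, with 224 probe sets, the largest excess of that array was 0.37. An annotation table gave 1 gene symbol for 48 of the 50 probe sets, which come from 46 genes, and 2 probe sets have no single gene name here.

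Tissue of wandering larvae of the 3rd instar, raised at 25 °C, was measured on single-colour Affymetrix arrays in 5 groups of 3, each sample a pool from 10 larvae. A DSas-4 mutant and a DSas-6 mutant, both without centrosomes according to the submitters, lack proteins that build centrioles. SakOE overexpresses Sak, the kinase that starts centriole duplication, and has too many centrosomes. The controls are w67 (genotype white wild type) and OregonR. All groups share the tissue and stage; alleles and the way Sak was overexpressed are not given in the sources used here. Values are the authors' log2 expression values, from 2.1741 to 15.03. The lowest value, called the floor here, was 2.1741 in DSas-4 and w67, 2.1777 in DSas-6, 2.1799 in OregonR and 2.181 in SakOE. A value under 4 is treated as not measured, and levels of different probe sets are not on a common scale.

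Many of the genes, 6 of the 12 with the largest excess, are on a list of genes for mucins and the peritrophic matrix, a sleeve of chitin and glycoproteins that lines the insect midgut and keeps food away from the epithelium. In the fly larva it is made at the junction of foregut and midgut, by the proventriculus. Peritrophins hold it together through chitin-binding domains, mucins are its heavily glycosylated proteins, and serine proteases such as the trypsins and the chymotrypsin-like Jonah enzymes are secreted by the midgut to digest dietary protein.

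In the array that carries them, the 50 probe sets ranged from 5.24 to 13.20 with a median of 8.34. In the other 14 arrays none of the 50 reached 4, and the highest of the 700 values was 2.74. Of these 700 values 458 (65.4%) were exactly at the floor of their array, and 43 of the 50 probe sets lay within 0.1 of it in all 14 arrays. In bulk tissue, fewer cells that carry a transcript and less transcript per cell cannot be told apart. Since the 14 arrays are under 4, folds are given as "at least", computed against 4, and the array itself is a single sample with no replicate error.

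**Figure D1:**
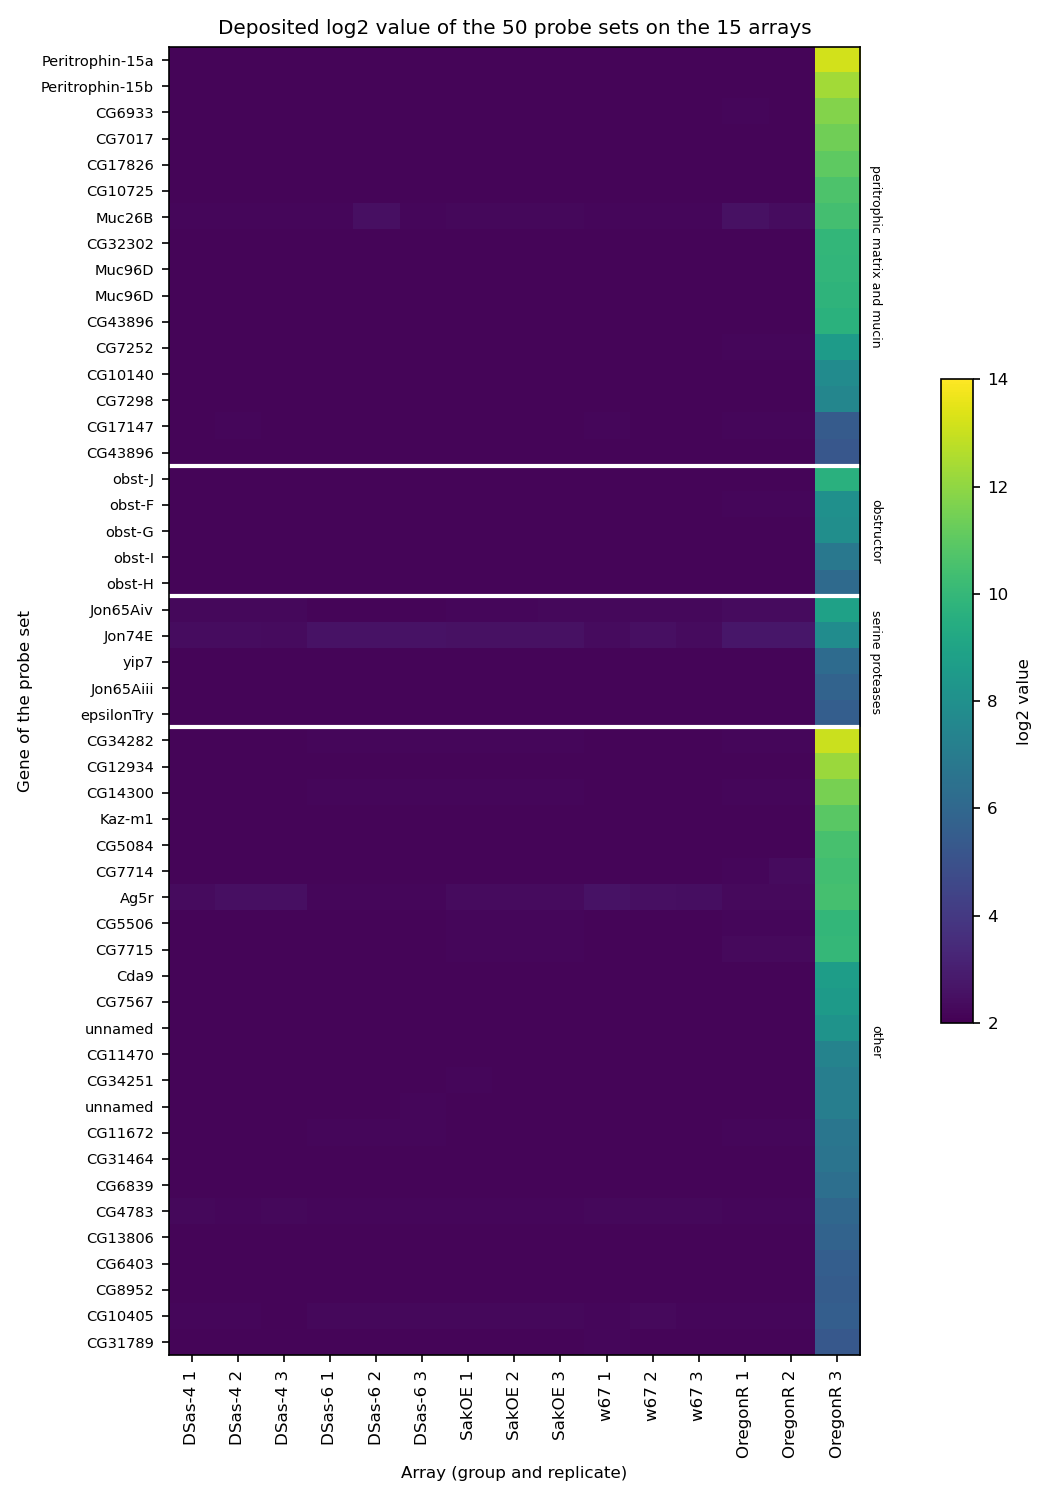
Log2 value (colour) of the 50 probe sets (rows, by gene list and then by excess) on the 15 arrays (columns, group and replicate). OregonR replicate 3 holds values from 5.24 to 13.20, and every other column stays at or below 2.74.

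Peritrophin-15a, a small chitin-binding protein, stood at 13.20 in OregonR replicate 3 and at 2.18 in replicates 1 and 2, with 2.17 to 2.18 and a median of 2.18 over the 12 arrays of the other strains. That is at least 589-fold higher. Peritrophin-15b, its neighbour on arm 2L, stood at 12.33 against 2.18 in replicates 1 and 2 and 2.18 in the lowest and highest of the 12, at least 322-fold higher. For both genes 1 array stands apart, as the rule requires, and the other OregonR arrays lie at the level of the other strains, so the groups overlap.

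Further chitin-binding genes of the peritrophic matrix and mucin list followed. CG6933 reached 11.78 (at least 220-fold), CG7017 11.40 (168-fold), CG17826 11.02 (129-fold) and CG10725 10.67 (102-fold). CG32302 reached 9.93, and all 5 were at or below 2.20 in the other 14 arrays. Muc26B, a mucin gene, stood at 10.41 in OregonR replicate 3, 2.53 in replicate 1 and 2.39 in replicate 2, with 2.20 to 2.49 (median 2.21) in the other strains. It is among the few members with any visible spread there, all of it below 4. Muc96D, another mucin gene, is measured by 2 probe sets that gave 9.89 and 9.79, both 2.18 at most elsewhere. CG43896, a RefSeq gene that joins CG6947 and CG17824, also has 2 probe sets, which gave 9.67 and 5.24. Both are above 4 in that array alone. CG7252 (8.57), CG10140 (7.78), CG7298 (7.49) and CG17147 (5.45) complete this list's members.

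In all, 16 of the list's 45 probe sets, from 14 of its 39 measured genes, are members, and their median excess was 7.73. The list was drawn up with earlier results of these data known. Of the other probe sets, CG10154 (5.64, highest other 3.17) and Muc55B (4.46, highest other 2.18) were above 4 in the same array alone, with an excess under 3. The rest of the list, among it Muc68D, Muc68E, Muc14A, Mur11Da, Muc30E, CG7290 and CG17145, stayed under 4 on all 15 arrays. The high values thus come from some of the list's genes, and 27 of its 45 probe sets were not detected in this array either. The list's median excess was 0.01, and that over all 18952 probe sets was -0.07.

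The obstructor genes, which encode secreted chitin-binding proteins, fell into 2 sets, in a list chosen after its values were seen. obst-J stood at 9.62, obst-F at 8.04, obst-G at 7.95, obst-I at 6.80 and obst-H at 6.16, with 2.23 as the highest value of any of the 5 in the other arrays. Other family members were as high in every array. obst-A, which organises larval cuticle, was at 12.15 in the array and 12.12 to 12.60 in the other 14, Gasp, a protein of the airway lining, at 12 against 11.88 to 12.27, and obst-B at 9.99 against 9.66 to 10.16. Thus 5 of 9 obstructor genes reached 4 in that array alone, and the other 4, obst-E included (4.24 against 4.24 to 4.66), had no excess.

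Enzymes that make and modify chitin also differed among themselves, again in a list chosen after the values were seen. Cda9, a chitin deacetylase, stood at 8.67 and at 2.18 or less in the other 14 arrays, at least 25.5-fold higher. It is the single member among 17 measured genes. The chitin synthase gene kkv was at 10.92, within the 10.85 to 11.30 of the other arrays. Chs2, the other chitin synthase gene, known for the chitin of the midgut, was at 2.18 in that array and no higher in any other, so it was not detected beside the peritrophins. The deacetylases serp (10.18 against 10.27 to 10.83) and verm (10.10 against 9.98 to 10.63) showed no excess.

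Digestive serine proteases gave 5 members. Jon65Aiv stood at 8.89 in the array, at 2.33 and 2.34 in OregonR replicates 1 and 2, and at 2.18 to 2.25 (median 2.24) in the other strains, at least 29.7-fold higher. Jon74E stood at 7.83, with 2.74 and 2.71 in its sister replicates and 2.35 to 2.60 (median 2.51) elsewhere, at least 14.2-fold higher. Both Jonah genes have the highest of their low values in the other OregonR arrays, still well under 4. The protease gene yip7 reached 6.21 (at least 4.64-fold), Jon65Aiii 5.83 (3.56-fold) and the trypsin gene epsilonTry 5.57 (2.98-fold), each at or near the floor elsewhere. The list has 27 probe sets. The trypsin gene betaTry (5.11, highest other 2.18) fell just short of the threshold, alphaTry was at 2.72, and Jon25Bi, Jon25Biii, Jon44E, Jon99Ci, Jon99Fi, thetaTry, etaTry and zetaTry were at 2.18. Try29F, at 5.39 in the array, lay within the 4.79 to 5.65 of the others. CG8952 (5.49) and CG10405 (5.59), outside the list, are 2 further serine protease genes among the members.

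The remaining digestive lists held no member. In 6 of 8 gut lists (other peptidases, carbohydrases, lipases, lysozymes, uptake and transport, transcription factors), 0 of 83 probe sets had an excess over 1. The largest was 0.47, of the carboxypeptidase gene CG8560 (2.66 against 2.18). Over all 18952 probe sets 68 had an excess over 1, so the 0 of 83 is near the share over all. The maltase genes Mal-A1, Mal-A2, Mal-A3 and Mal-B1 were at 2.18. Lip1 was at 2.30 and LysX at 2.24. Of the factors, GATAe, which drives digestive genes in the midgut, cad and byn were at 2.18 in that array and no higher than 2.22 in any other. The 10 probe sets of these lists that reached 4 did so in other arrays too, such as Mal-A5 (10.23 against 9.94 to 10.39), Npc2b (8.89 against 8.06 to 8.79) and nub (9.17 against 9.08 to 9.74 on its brightest probe set). The name "gut-type" thus rests on 21 of the 50, which are on the peritrophic matrix and mucin list or the serine protease list. These lists were drawn up with earlier results of these data known. No array is labelled as gut, so the name was not tested. None of the digestive enzymes, uptake genes or gut transcription factors on the other gut lists was a member.

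**Figure D2:**
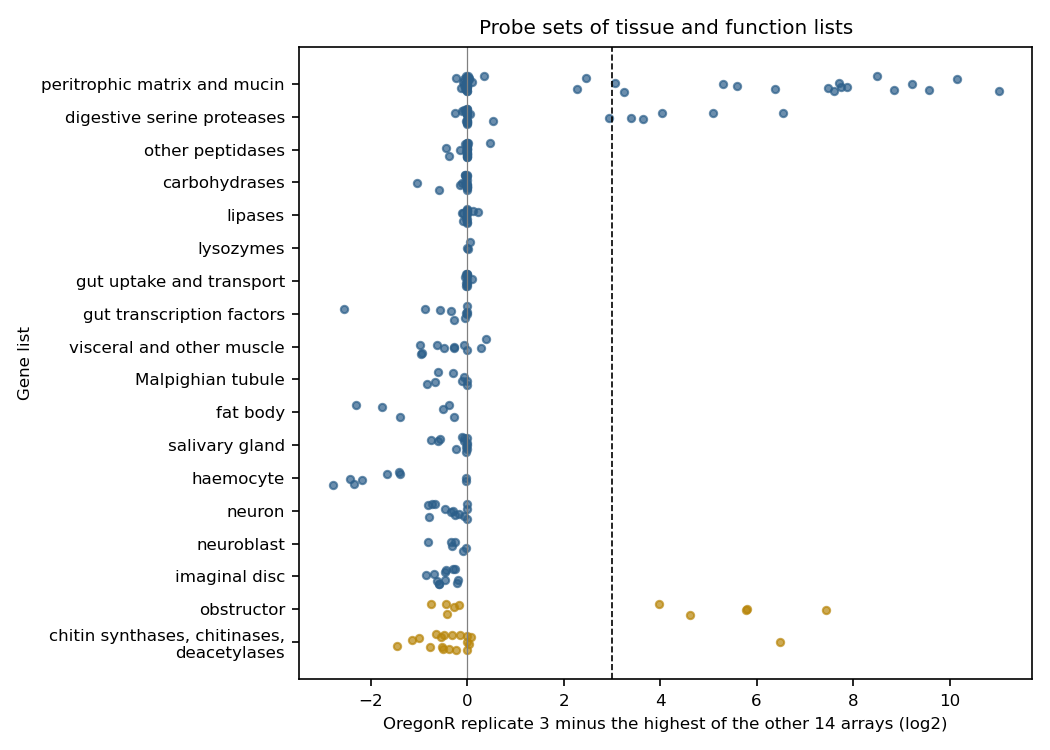
Excess of OregonR replicate 3 over the highest of the other 14 arrays (x axis, log2; 1 point per probe set) for 16 tissue and function lists (blue) and 2 lists chosen after the values were seen (gold). Points right of the dashed line at 3 are members, and they lie in 4 of the 18 lists.

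Genes outside the gut lists made up 29 of the 50. CG34282, an uncharacterised gene, stood at 13.05 in the array, at 2.21 in the other OregonR arrays and at 2.18 to 2.21 (median 2.18) in the other strains, at least 531-fold higher. CG12934 reached 12.20 (at least 294-fold), CG14300 11.55 (187-fold) and CG5084 10.53 (92.6-fold), with no value over 2.23 elsewhere. Kaz-m1, which lies in the Enhancer of split complex and encodes a Kazal-type protease inhibitor, stood at 10.92 and at 2.18 or less in the other 14 arrays. Ag5r, of the antigen-5 family of secreted proteins, stood at 10.45 with 2.31 and 2.32 in its sister replicates. In the other strains Ag5r ranged from 2.21 to 2.57 (median 2.36), and w67 replicate 1 was the highest. CG7714 stood at 10.36, CG7715 at 9.99 and CG5506 at 9.94. After Jon74E (2.74), Ag5r (2.57) and Muc26B (2.53), the highest values of a member in any other array were those of Jon65Aiv (2.34) and CG7714 (2.33).

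The excess ran on across the threshold. Just inside the threshold lay CG17147 (excess 3.25), CG31789 (3.10) and the second probe set of CG43896 (3.06), and just outside betaTry (2.93), CG10912 (2.89) and CG15043 (2.79). In all, 12 probe sets had an excess of over 1 and up to 2, 6 of over 2 and up to 3, 11 members of up to 4, and 25 members of over 6. All 50 members came from the 10230 probe sets that stayed under 4 in the other 14 arrays. Among the 8722 that reached 4 in at least 1 of them, the largest excess was 1.58, of CG5399 (8.47, with 6.42 and 6.34 in the sister replicates and 6.89 as the highest other). No probe set of that array lay more than 1 below the lowest of the others.

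**Figure D3:**
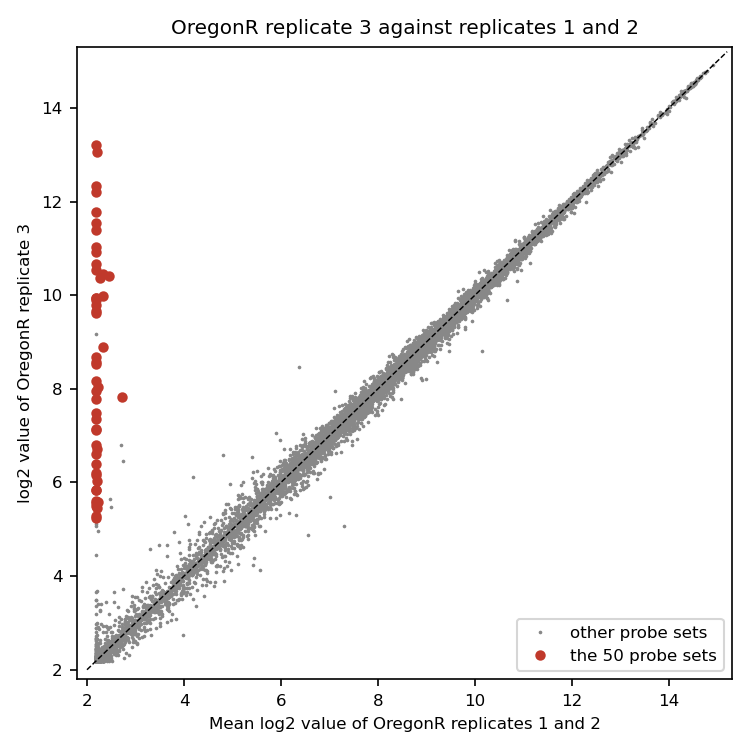
Log2 value of each of 18952 probe sets in OregonR replicate 3 (y axis) against the mean of OregonR replicates 1 and 2 (x axis), with the 50 members in red and the line of equality dashed. The members stand in a column above x values of 2.18 to 2.73, while most other probe sets follow the line.

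The same rule was then applied to each array in turn. It gave 50 probe sets for OregonR replicate 3, 2 without a gene name for SakOE replicate 3 and 0 for the other 13 arrays. At an excess over 1 the counts were 68 for OregonR replicate 3 and 40 for DSas-4 replicate 1, with at most 6 in each of the others. The correlation of OregonR replicate 3 with its sister replicates over the 8591 probe sets at 4 or more in at least 3 arrays was 0.995 and 0.996. This is inside the 0.988 to 0.997 of all replicate pairs. None of the 50 is among those 8591, so the correlations leave the members out by construction. In OregonR replicate 3, 44.8% of the probe sets reached 4, as in other arrays (44.4% to 44.8%).

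**Figure D4:**
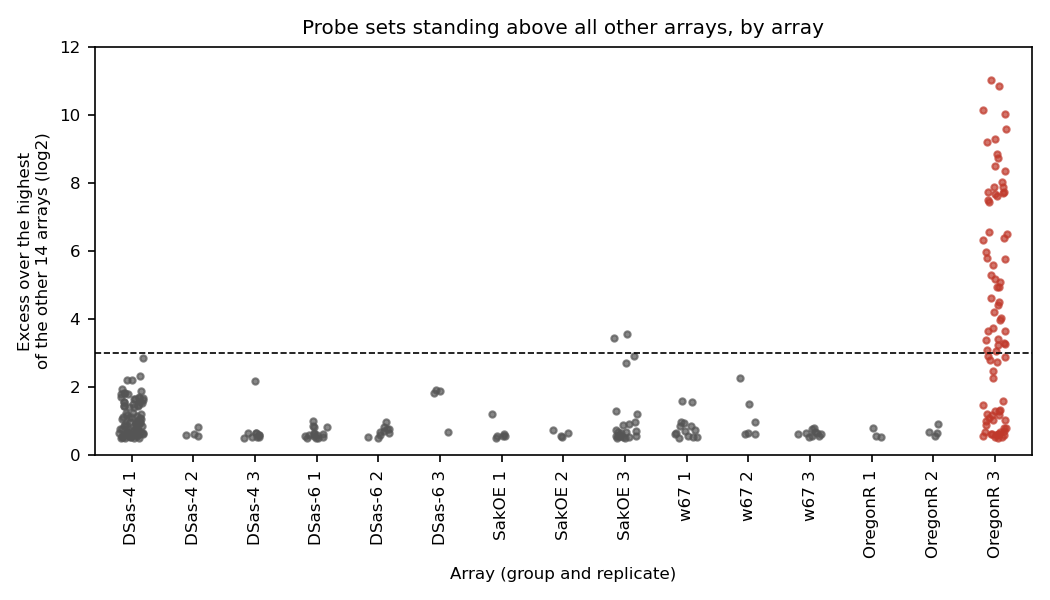
Excess of each array over the highest of the other 14 (y axis, log2) for every probe set with an excess over 0.5 (points), by array; the dashed line marks 3. OregonR replicate 3 (red) has 50 points above the line, SakOE replicate 3 has 2, and the largest excess in OregonR replicates 1 and 2 is 0.93.

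Markers of brain and discs were measured in the array, with some gaps. The pan-neuronal gene elav stood at 12.88 (11.70 to 13.05 in the other 14), the neuroblast gene dpn at 9.19 (8.92 to 9.53) and the eye gene eya at 10.44 (10.06 to 10.63). The mean of 12 disc probe sets was 8.47, just under the 8.49 to 8.81 of the others, that of 6 neuroblast probe sets 9.39 (8.88 to 9.61) and that of 13 neuron probe sets 6.14 (5.93 to 6.29). Of the 12 disc probe sets 4 lay below all 14 other arrays (2 of Dll, 1 of dac and 1 of vg), and of the 13 neuron probe sets 5, both of VGlut included, were under 4 on every array.

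Tissues other than gut, brain and discs gave no member. Over 5 lists of such tissues, 0 of 47 probe sets had an excess over 1. Only 68 of all 18952 probe sets did, so the 0 of 47 is near the share over all. Many were under 4 on every array and so not measured, among them 12 of 13 salivary gland and 5 of 11 muscle probe sets. The same held for 4 of 8 Malpighian tubule and 2 of 9 haemocyte probe sets, and the means below include them all. The mean of 11 muscle probe sets was 4.57 (4.23 to 4.61 in the others), that of 8 Malpighian tubule probe sets 4.01 (3.92 to 4.16), that of 13 salivary gland probe sets 2.47 (2.46 to 2.53) and that of 9 haemocyte probe sets 4.98 (4.57 to 6.56). Mf, a muscle gene, had the largest excess of them (0.38), at 6.09 against at most 5.71. The other probe set of Mf was at 4.11 against at most 3.83. The 6 fat body probe sets averaged 6.10, lower than in any other array: 6.38 to 7.07 in DSas-4, 6.49 to 6.66 in DSas-6, 6.35 to 6.72 in SakOE, 6.65 to 7.11 in w67 and 6.44 in both other OregonR arrays. Lsp2, a larval storage protein gene, stood at 4.23 there against 4.30 to 6.54. Fbp1 (3.37 against 3.71 to 5.13) and Fbp2 (3.45 against 3.23 to 4.85) were under 4 in that array. By contrast, apolpp (10.85 against 10.60 to 11.24), Mtp (8.47 against 8.39 to 8.74) and Apoltp (6.23 against 6.02 to 6.75) lay within the other arrays. The lower mean thus does not hold for each gene of the list. In that array 4 of the 6 reached 4, and none of the 6 was at 0 or at the floor. The part of these levels in the result was not tested.

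The member genes share features that the rule did not use. Arm 3L holds 23 of the 46 genes (50%) and 19.7% of all genes with a probe set of their own. Arm 3R holds 13 (28.3% against 25.0% of all), near its share. Below their shares are 2L with 4 (8.7% against 18.5%), 2R with 4 (8.7% against 20.4%) and X with 2 (4.35% against 15.7%). Arms were not compared within the probe sets under 4 in the other arrays alone. Many, picked out after their values were seen, are neighbours in the RefSeq gene order of Release 6: 27 of the 46 lie in 9 groups with at most 5 other protein-coding genes between consecutive members. No such count was made for other genes, so it is a description only. With no gene between them lie Peritrophin-15b and Peritrophin-15a on 2L, CG13806, obst-I and CG32302 on 3L, CG7252, CG17826 and obst-G on 3L, CG10725 and CG10140 on 3L, CG11672 and CG31464 on 3R, and CG7567 and CG11470 on 3R. The proteases yip7, Jon65Aiv and Jon65Aiii enclose 1 gene, CG6462, which was at 2.18.

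The largest group has 6 members on 3L, in the order obst-J, obst-F, CG7298, CG7017, CG6933 and CG17147, with 8 genes between them. Of those, the chitin-binding genes CG7290 (2.18), CG6996 (2.23) and CG17145 (2.18) stayed near the floor on the array, so neighbours of 1 family differed. CG7328 (5.67, highest other 5.79) and CG42674 (6.84 against 7.25 on its brightest probe set) were measured in other arrays too. Ssk, a protein of the smooth septate junctions of gut and tubule epithelia, was at 3.45 and at most 2.57 elsewhere, both under 4. On 3R, CG14300, CG34282, CG7714 and CG7715 surround the cholinergic genes ChAT (8.64, highest other 8.98) and VAChT (8.05, highest other 8.59). There, transcripts of neurons seen on all arrays and transcripts seen on 1 array lie side by side.

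The genes are also short. Their median length in the RefSeq table, introns included, was 1053 bases against 2263 over 11885 measured genes, and 91.3% of them were under 2000 bases against 44.8% of all. CG34251, with 11960 bases, was the longest. All members come from probe sets under 4 in the other arrays, and length was not compared within those alone. Probe sets of the types _s_at and _x_at, which can match transcripts of other genes, made up 6.0% of the members and 10.9% of the array.

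The last question is what these genes do in the comparisons the study was designed for, each altered strain against both wild types. None of the 50 reached 4 in 3 arrays, so 0 entered the fits, which tested probe sets at 4 or more in at least 3 of the arrays fitted (limma, Benjamini-Hochberg adjusted p under 0.05). Without OregonR, 4.38% of 8564 probe sets were called for DSas-4 against w67, 19.1% for DSas-6 and 28.8% for SakOE. With all 15 arrays, 16.0% of 8591 were called for OregonR against w67, 25.5% for DSas-4 against OregonR, 16.0% for DSas-6 and 18.6% for SakOE. After the same centring they were 7.72%, 18.3%, 16.6% and 18.3%, so the shares depend on the normalization.

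When a value of 4 in 1 array was enough, all 50 entered the 4 comparisons with OregonR, but only through replicate 3, the array that chose them. With 1 high value among 3, limma called 0 of the 50 (also 0 at an unadjusted p under 0.05) for OregonR against w67 (15.8% of all probe sets called) and for DSas-4 (25.1%), DSas-6 (16.1%) and SakOE (18.2%) against OregonR. These counts follow from the choice of members and say nothing further about them. A member's OregonR mean rests on replicate 3 alone: for Peritrophin-15a it was 5.85 ± 6.36 (SD, n = 3), and for Jon65Aiv 4.52 ± 3.79.

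Strains other than OregonR could be compared with w67 for these genes only with no filter at all, at values no array lifted above 2.60. limma then called 0 of the 50 for DSas-4 (1.12% of all probe sets called; 0 at an unadjusted p under 0.05), 43 for DSas-6 (51.9% called) and 45 for SakOE (57.8% called). The median size of the called differences was 0.00364 for DSas-6 and 0.00686 for SakOE, the same as the differences between the floors of those groups and of w67. With values under 4 set to 4, as an alternative added after seeing the data, 0 of the 50 had any spread left in these 3 comparisons.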

How the data were processed

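RNA of brains and imaginal discs was measured on 15 Affymetrix Drosophila Genome 2.0 arrays, grouped by the sample titles. Per the labels, 500 ng of total RNA went into each labelling reaction. The deposited log2 values were made by the authors with GCRMA, which subtracts non-specific binding and summarises probes into 1 value per probe set, and limma was also used, per the submitters' processing notes. Versions are not given in the sources used here, and the log2 scale was inferred from that note and the range. Groups other than DSas-4 and w67 have floors of their own, so normalization run and group cannot be told apart in other contrasts.

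Excess is the value of OregonR replicate 3 minus the highest of the other 14 arrays. Probe sets were named from the platform's table where it gives 1 symbol (13647; several for 402, none for 4903), and 13544 were found by Entrez number in RefSeq Release 6, used for symbols, arm, order and length. "At the floor" allows 1e-09. Members and the 16 lists were chosen with earlier results of these data known, and 2 lists after the values were seen. Contrasts were fitted with limma 3.58.1 in R 4.3.3, with 1 mean per group, two-sided, and tested on simulated data. Contrasts of the 3 altered strains against w67 leave OregonR out, since its replicate 3 chose the members, and contrasts with OregonR use all 15 arrays. Named are up to 8 members per list by excess, 8 outside the lists, those at the threshold, those highest elsewhere and those with 2 probe sets; neighbours and the added lists were named after their values were seen. Deviations of same-numbered arrays from their group means correlated positively in DSas-4 and w67 (r of 0.374, 0.126 and 0.166) and in DSas-6 and w67 (0.105, 0.232 and 0.245). Arrays of different number were not compared in this way, so these r do not establish a pairing. In the other 5 contrasts r ran from -0.238 to 0.184, and in 3 of them (SakOE and OregonR against w67, DSas-4 against OregonR) every r was negative. The number of arrays limits the precision.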

Additional observations from a re-analysis of the deposited data

How the results depend on the processing

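The count of 50 probe sets was 56 at an excess of more than 2, 39 at more than 4, 50 after median centring, 50 after quantile normalization, 54 against OregonR replicates 1 and 2 alone and 50 to 51 without any 1 of the other 14 arrays (51 without DSas-4 replicate 1). In the 7 limma contrasts, 0 of the 50 were called under median centring, quantile normalization, the lower filter, the replicate block (0 tested, 0 called), without each array of the groups compared and with values under 4 set to 4, which was added after seeing the data. The exceptions were the fits with no filter for DSas-6 (43 called) and SakOE (45 called) against w67, where the median called difference equals that between the floors. Most of these contrasts tested 0 members, so an unchanged 0 says nothing of stability. The high values rest on 1 array, for which no replicate exists, and signal under 4 cannot be told from background.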

Other observations

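Besides the 50 probe sets, 4 stood more than 3 above OregonR replicates 1 and 2 but by less than 3, or not at all, above the other arrays. CG9021 was at 9.17 in OregonR replicate 3, 9.42 in DSas-4 replicate 1 and 5.30 in DSas-6 replicate 2, and at most 2.19 in the other 12 arrays. CG9192 shared those arrays, at 6.79, 5.59 and 3.92, with at most 2.88 elsewhere. CG34296 stood at 6.46 in OregonR replicate 3, 7.11 in DSas-4 replicate 1, 5.09 in DSas-6 replicate 1, 7.87 in SakOE replicate 3 and 6.53 in w67 replicate 2, and at most 2.88 in the other arrays. CG10154 was at 5.64 and at most 3.17. These genes were singled out after their values were seen, and 3 of the 4 were high in single arrays of several strains. The rule requires each of the 50 to be high in 1 array, so this difference follows from the choice of members.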
